A study of Mus musculus with 21 samples.

Results

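The genes described here are those of the cytosolic ribosomal proteins, followed through 21 RNA-seq libraries of mouse spermatogenic cells. Members were chosen by symbol, as every gene whose name starts with Rpl, Rps or Rplp and a number, without symbols that contain -ps and without the Rps6k kinases. This gave 87 of the 24456 genes of the table, of which 50 have large-subunit symbols, 34 have small-subunit symbols and 3 (Rplp0, Rplp1 and Rplp2) encode the P-stalk. The rule left out 7 symbols with -ps and 10 Rps6k kinases, and it also leaves out Rpsa and Fau, which encode ribosomal proteins under other names. In the other direction it takes in Rps19bp1, which encodes a protein that binds a ribosomal protein, and Rpl7l1, whose product works in ribosome assembly.

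The study sequenced total RNA of fractionated cells from testis in 2 genotypes, H2al2 WT and H2al2 KO. H2al2 encodes H2A.L.2, a histone variant of late spermatids. Pachytene spermatocytes, which are in meiosis, round spermatids, the haploid cells that follow, and condensing spermatids, in which the chromatin is compacted, had 3 WT and 3 KO libraries each. Spermatozoa had 2 WT libraries and 1 KO library. The labels give no strain, age or treatment and no design of the KO allele, and they do not say whether replicates came from separate animals, so the p-values measure only the spread between these libraries.

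The ribosome is built in the nucleolus and the cytoplasm from ribosomal RNA and about equal amounts of each ribosomal protein, and in most tissues the genes of these proteins are transcribed at steady, high levels. Their mRNAs begin with a terminal oligopyrimidine (TOP) tract through which mTOR and LARP1 control their translation. Some ribosomal proteins are encoded on the X chromosome, which is transcriptionally silenced during male meiosis. Rpl10l and Rpl39l are autosomal genes of the testis that encode near copies of the products of the X-linked genes Rpl10 and Rpl39.

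The coding sequences of these pairs are shown because they tell how far reads of the copies can be separated. In GRCm38.p6, Rpl10 lies at chrX:74270816-74273135, Rpl10l at chr12:66283379-66284401, Rpl39 at chrX:37082518-37085222 and Rpl39l at chr16:10170197-10174911. All 4 are protein-coding genes, and the counts are those of their exons. Capitals mark the bases at which the copies of a pair differ, and positions are counted from the A of the start codon. Of the first 150 coding bases, Rpl10 and Rpl10l differ at 25.
Rpl10: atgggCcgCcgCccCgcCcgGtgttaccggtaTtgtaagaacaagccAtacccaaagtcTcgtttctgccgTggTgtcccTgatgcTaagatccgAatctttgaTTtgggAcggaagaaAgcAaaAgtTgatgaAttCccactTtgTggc
Rpl10l: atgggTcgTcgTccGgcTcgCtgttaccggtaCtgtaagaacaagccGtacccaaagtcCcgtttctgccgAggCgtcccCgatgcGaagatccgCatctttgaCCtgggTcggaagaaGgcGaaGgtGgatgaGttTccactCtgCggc
Over the whole coding sequence of 642 bases, 84.7% of the bases and 98.6% of the encoded residues were identical. Rpl39 and Rpl39l have coding sequences of 153 bases, which differ at 23 positions and encode proteins with 94.1% identical residues.
Rpl39: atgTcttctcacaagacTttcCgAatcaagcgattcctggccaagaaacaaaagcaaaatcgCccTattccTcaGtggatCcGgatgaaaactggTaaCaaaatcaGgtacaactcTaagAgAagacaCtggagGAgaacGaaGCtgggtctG
Rpl39l: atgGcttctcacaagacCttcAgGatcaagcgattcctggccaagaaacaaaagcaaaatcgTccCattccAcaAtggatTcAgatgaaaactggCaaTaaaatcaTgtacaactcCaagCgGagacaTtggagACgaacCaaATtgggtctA
No run of 75 bases, the read length of these libraries, was shared between the copies of either pair. Rpl10 nevertheless shares sequence with 11 other genes of the GENCODE transcript set, and 15.1% of its 75-base words occurred in no other gene, against 99.7% for Rpl10l, 92.4% for Rpl39 and 100% for Rpl39l. Reads that aligned to several places were not counted, so a gene with few words of its own can be undercounted. Across the 87 members the median share of such words was 57.4%, 37 members had less than 50%, and the lowest was 1.48% in Rps27.

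Counts on genes were 5799060 to 8201682 in pachytene spermatocytes, 7230653 to 7852780 in round spermatids, 5876464 to 7400817 in condensing spermatids and 2772995 to 3450580 in spermatozoa. A count of 0 allows up to 3 counts, which is 0.366 to 1.08 CPM (a count scaled to a common total of counts on genes) depending on the library. RefSeq gives H2afb1, the symbol in the table, as an older name of both H2al2a and H2ab1, and it was read here as the gene of H2A.L.2, an identity that the table does not settle. H2afb1 had 190 to 199 CPM in WT and 19.9 to 24.6 CPM in KO round spermatids, 165 to 242 and 26.8 to 34.9 CPM in condensing spermatids, 16 to 42.0 and 3.29 to 5.35 CPM in pachytene spermatocytes, and 46.9 to 57.4 and 14.6 CPM in spermatozoa. Pachytene spermatocytes and round spermatids carried markers of their own. In pachytene spermatocytes, 8 pachytene genes summed to 2163 to 2727 CPM, of which Piwil1 alone had 1176 to 1278 CPM. In round spermatids, 8 round spermatid genes summed to 1205 to 1404 CPM. In each genotype, 6 of the pachytene genes were lower and 1 was higher in round spermatids than in pachytene spermatocytes, without overlap. The sums of 9 genes of elongating and condensing spermatids overlapped, at 23030 to 29223 CPM in round and 27685 to 40134 CPM in condensing spermatids. Markers of other cells also moved between fractions. The 10 Sertoli cell genes summed to 14.8 to 56.5 CPM in pachytene spermatocytes and round spermatids and to 388 to 588 CPM in condensing spermatids. In spermatozoa, 8 macrophage genes summed to 948 and 960 CPM in WT and 4107 CPM in KO, against at most 39.0 CPM in every other library. The 7 epididymis genes summed in spermatozoa to 1787 and 1972 CPM in WT and 548 CPM in KO, against at most 6.45 CPM elsewhere. Crisp1 (1473 and 1626 in WT, 507 in KO) and Adam7 (308 and 345 in WT, 40.3 in KO) held most of this sum. Of the 7 genes, 2 had 0 counts in WT and 5 in KO spermatozoa. The KO spermatozoa library also had fewer counts on 9 genes of elongating and condensing spermatids, 10665 CPM against 31751 and 34696 CPM in WT.

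Together the members took 1.04% to 1.24% of the counts on genes in WT pachytene spermatocytes (1.13% ± 0.10, SD, n = 3) and 0.870% to 0.884% in WT round spermatids (0.875% ± 0.0080, n = 3). WT condensing spermatids had 0.843% to 0.897%, which overlapped the round spermatids, and the 2 WT spermatozoa libraries had 2.49% and 2.51%. In KO the shares were 0.941% to 1.03%, 0.835% to 0.871%, 0.799% to 0.876% and 2.18% in the same order. Spermatozoa were thus highest in both genotypes, and pachytene spermatocytes lay above round and condensing spermatids without overlap. The 77 mitochondrial ribosomal protein genes went another way in spermatozoa, with 0.212% to 0.255% in pachytene spermatocytes, 0.140% to 0.151% in round spermatids, 0.120% to 0.146% in condensing spermatids and 0.0831% to 0.106% in spermatozoa. In bulk samples, fewer cells of a type and less RNA per cell cannot be told apart.

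**Figure D1:**
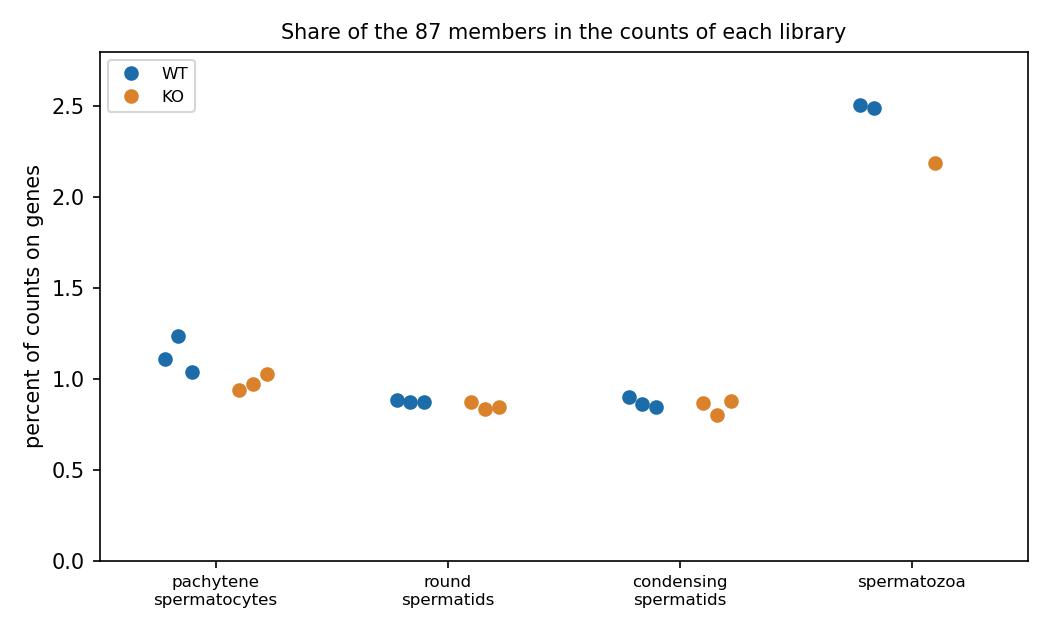
Percent of the counts on genes taken by the 87 members (y axis) in each library, by stage (x axis) and genotype (blue WT, orange KO); each point is 1 library. The 3 spermatozoa libraries sit between 2.18% and 2.51%, above the other 18, which lie between 0.799% and 1.24%.

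Levels were compared between members per kilobase of transcript, as normalized CPM per kb. In WT round spermatids the median member had 100.2 (interquartile range 47.0 to 169). The highest were Rpl41 at 656, Rps29 at 519, Rpl36 at 442, Rpl37a at 355 and Rplp0, which anchors the P-stalk, at 338. The lowest were Rpl37rt at 3.5, Rps19bp1 at 3.09, Rpl26 at 2.62, Rpl3l, the muscle form of Rpl3, at 0.03, and Rps27rt, which had 0 counts in all 21 libraries. In this order Rpl39l was 12th (249), Rpl10l 30th (148) and Rps4l 50th (87.2). The X-linked Rpl10 (6.99), Rpl36a (6.53), Rpl39 (6.48) and Rps4x (3.69) lay at places 77, 78, 79 and 82 of 87. Words shared with other genes were not corrected for. Only 15.1% of the words of Rpl10 and 15.4% of those of Rpl36a were their own, so both can be placed too low. The length of the transcript used also enters, as for Rps20 with 3706 bases at place 55. Spearman's rho between level and share of unique words was -0.08 over 86 members, a description only, since all levels come from the same 3 libraries.

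Before the last stage, the autosomal copies of the 4 X-linked members had the higher normalized CPM, and in spermatozoa the order was the opposite. Per kb of sequence unique to each gene, however, Rpl10l made up 44.7% and Rpl36al 37.0% of the level of their pairs in condensing spermatids, so for these pairs the order in that stage depended on the scale. Values in this paragraph are normalized CPM, given as the lowest, median and highest of the 6 libraries of a stage, WT and KO together, or as the 3 values of spermatozoa. Rpl10l had 118, 150 and 177 in pachytene spermatocytes, then 89.4, 131 and 170 in round spermatids, 62.1, 86.1 and 105 in condensing spermatids, and 30.6 and 31.4 in WT and 13.8 in KO spermatozoa. Rpl10, which encodes a protein of the large subunit near the subunit interface, had 2.53, 5.54 and 7.30, then 3.53, 5.47 and 6.44, then 10.7, 12.7 and 19.0, and finally 659 and 557 in WT and 223 in KO spermatozoa. Rpl10l was above Rpl10 in all 18 libraries of the first 3 stages and below it in all 3 spermatozoa libraries.

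The second testis gene behaved alike. Rpl39l had 121, 167 and 226 in pachytene spermatocytes, then 181, 194 and 223 in round spermatids, 107, 146 and 169 in condensing spermatids, and 39.7 and 40.9 in WT and 23.4 in KO spermatozoa. Rpl39, a small protein of the large subunit that lines the exit tunnel, had 1.27, 2.29 and 4.53, then 1.18, 3.25 and 5.77, then 5.08, 8.11 and 10.4, and 102 and 96.7 in WT and 64.9 in KO spermatozoa. The groups of condensing spermatids and spermatozoa did not overlap for any of these 4 genes.

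A similar exchange was seen for the other X-linked members. Rps4l, annotated as a transcribed pseudogene on chromosome 6, had 58.9, 69.8 and 85.3 in pachytene spermatocytes, then 64.6, 78.7 and 82.9 in round spermatids, 43.1, 51.1 and 55.7 in condensing spermatids, and 36.5, 30.7 and 20.6 in spermatozoa. Rps4x, the small-subunit gene it resembles, stood at 0.950, 1.98 and 4.67, then 2.47, 3.12 and 4.56, then 9.0, 10.9 and 14.6, and at 667, 686 and 800 in spermatozoa, where the KO library was the highest. Rpl36al, a gene on chromosome 12 that encodes the same protein as Rpl36a (100% identical residues, 87.7% identical coding bases), changed least, from medians of 55.7, 47.9 and 45.5 to 41.8 in spermatozoa. Its X-linked partner Rpl36a went from medians of 2.55, 3.41 and 6.40 to 98.8 (range 71.4 to 101).

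**Figure D2:**
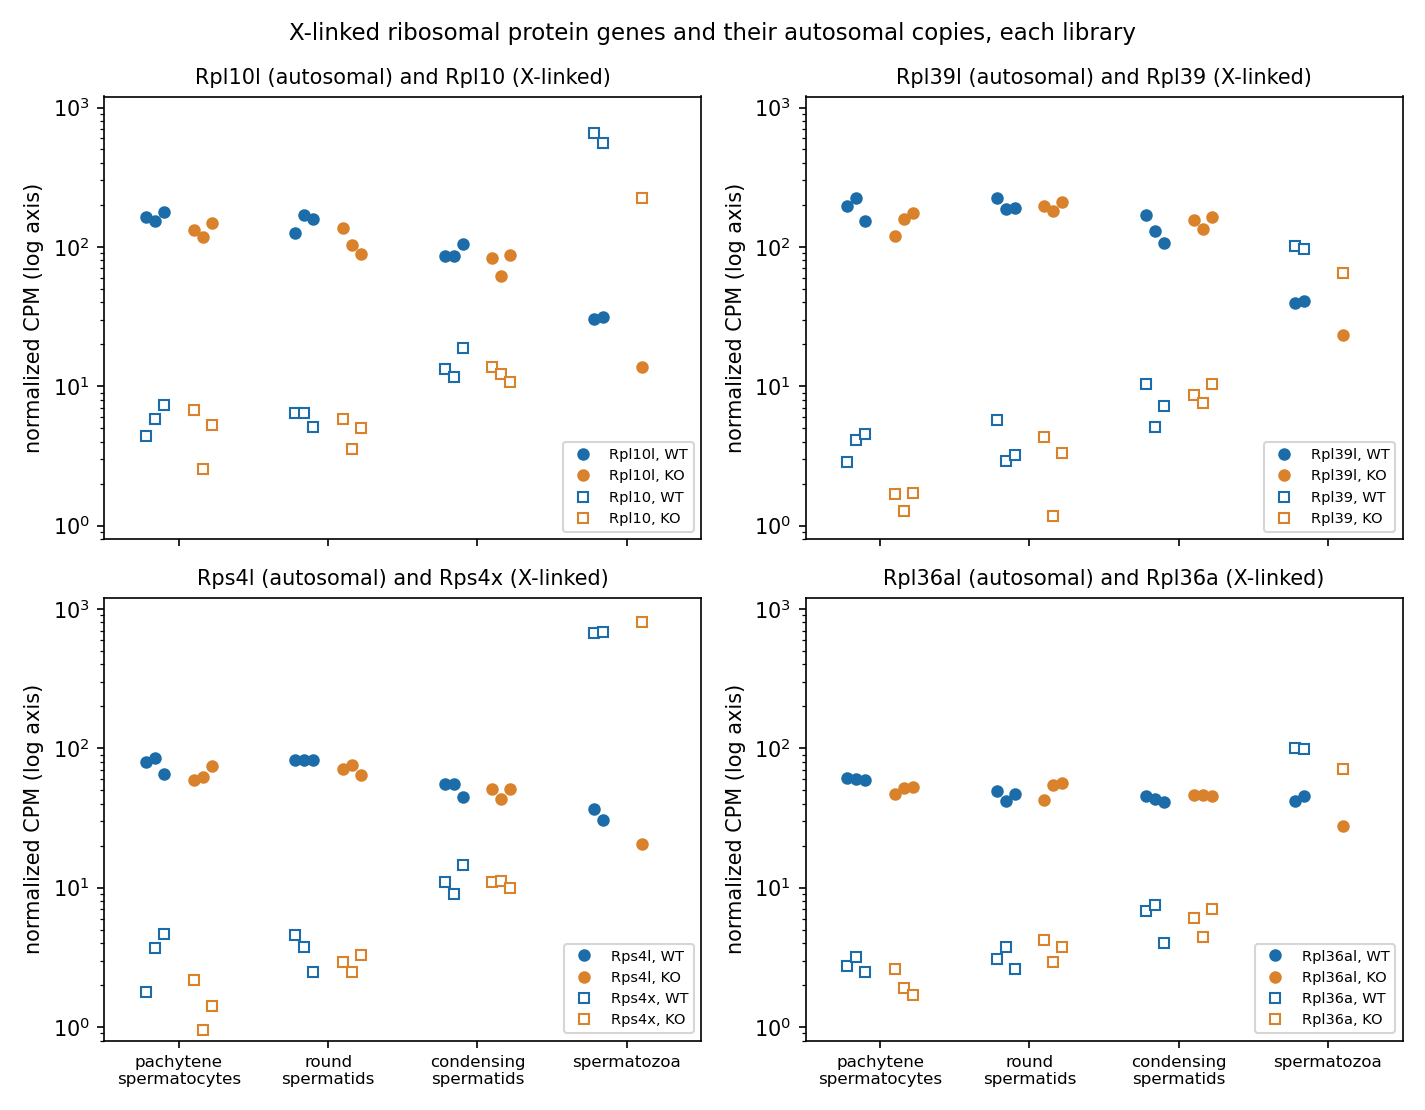
Normalized CPM on a log axis (y) in each library by stage (x) for Rpl10l and Rpl10, Rpl39l and Rpl39, Rps4l and Rps4x, and Rpl36al and Rpl36a; filled circles are autosomal copies, open squares X-linked members, blue WT and orange KO. In each panel the circles lie above the squares in the first 3 stages and below them in spermatozoa, as for Rpl10l at 13.8 to 31.4 against Rpl10 at 223 to 659.

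The ratio of the counts of 2 genes within a library does not depend on scaling, and it was compared between neighbouring stages for 8 pairs of copies with exact two-sided permutation tests over libraries, adjusted over the 24 tests. From pachytene spermatocytes to round spermatids the log2 ratio of Rpl10l to Rpl10 went from 4.84 ± 0.44 to 4.57 ± 0.32 (SD, n = 6 each, exact permutation test, adjusted p = 0.314), and that of Rpl39l to Rpl39 from 6.08 ± 0.65 to 5.95 ± 0.67 (adjusted p = 0.775 by the same exact test). Neither passed the threshold. From round to condensing spermatids both fell, by 1.91 to 2.67 ± 0.25 and by 1.81 to 4.14 ± 0.27 (exact adjusted p = 0.010 for each), and the groups did not overlap. In spermatozoa they were 6.85 and 5.49 lower again, at -4.19 ± 0.22 and -1.35 ± 0.12 (n = 3, exact adjusted p = 0.036 for each). The smallest p this design allows is 0.0022 for 6 against 6 libraries and 0.0238 for 3 against 6, so the last comparison rests on complete separation. Leaving out the KO spermatozoa library gave differences of -6.95 and -5.43 (exact adjusted p = 0.0902). The groups stayed separate, and the smaller group raised the smallest p that can be reached.

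The pairs of Rps4l with Rps4x and of Rpl36al with Rpl36a fell by 2.37 and 0.90 from round to condensing spermatids (exact adjusted p = 0.010 and 0.015) and by 6.82 and 4.17 from there to spermatozoa (exact adjusted p = 0.036 for each). For every pair called between condensing spermatids and spermatozoa, the call was lost when any 1 of the 9 libraries was left out. The exact adjusted p was 0.0504 to 0.0536 without a condensing library and 0.0902 to 0.101 without a spermatozoa library. These losses were set by the group sizes, since the groups of these pairs were separate and fewer libraries raise the smallest p that can be reached. From pachytene spermatocytes to round spermatids the ratio of Rpl36al to Rpl36a had already fallen by 0.66 (exact adjusted p = 0.019), and that of Rps4l to Rps4x differed by -0.45 (exact adjusted p = 0.275). Expressed per kb, Rpl10l made up 95.9%, 95.2%, 84.1% and 4.39% of the pair's level in the 4 stages, Rpl39l 98.0%, 97.8%, 93.0% and 22.9%, Rps4l 96.8%, 96.0%, 82.2% and 4.12%, and Rpl36al 89.6%, 84.3%, 74.2% and 13.7%. Per kb of unique words the shares of Rpl10l were 78.2%, 75.1%, 44.7% and 0.69%, and those of Rpl36al 63.5%, 52.3%, 37.0% and 3.10%, because the X-linked partner has few words of its own. For Rpl39l this correction changed little, to 97.8%, 97.6%, 92.5% and 21.5%. The decline over the stages was present on both scales, while the shares of Rpl10l and Rpl36al in condensing spermatids were above 50% per kb and below it per kb of unique words. That of Rpl36al in round spermatids ranged from 43.6% to 58.4% over libraries on the second scale.

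Among autosomal pairs, the ratio of Rpl7l1 to Rpl7 fell by 1.31 from pachytene spermatocytes to round spermatids and rose by 0.68 in condensing spermatids (exact adjusted p = 0.010 for each), and in spermatozoa it differed by -0.71 (exact adjusted p = 0.159). The ratio of Rps27l to Rps27 fell by 1.03 (exact adjusted p = 0.015), differed by 0.49 (exact adjusted p = 0.067) and fell by 1.26 (exact adjusted p = 0.036) in the same steps, but Rps27 had almost no words of its own. The ratio of Rpl22l1 to Rpl22 rose by 0.53 (exact adjusted p = 0.036), then fell by 0.63 (exact adjusted p = 0.023) and by 1.85 (exact adjusted p = 0.036). The first of these lost its call when most single libraries were left out, with exact adjusted p of 0.0504 to 0.0649. For Rpl3l and Rpl3 none of the 3 steps passed the threshold, with at most 3 counts of Rpl3l per library outside WT spermatozoa. In all, 16 of the 24 ratio tests passed.

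The first stage comparison asks which members change between meiotic cells and the haploid round spermatids. In WT, 32 of the 84 members tested changed, 3 up and 29 down (edgeR quasi-likelihood test, Benjamini-Hochberg adjusted p under 0.05). Of all 14011 genes tested, 70.3% were called, 34.4% higher and 35.9% lower. The share of members called lower, 29 of 84, was thus near that of all genes. In WT, what set the members apart was the small share called higher, 3 of 84, where KO had 13 of 84. The median log2 fold change was -0.17 over the members and -0.02 over all genes, and the members' median was -0.04 without WT pachytene replicate 2 and -0.31 without replicate 3. Leydig cell markers were also lower in this step, at 85.1 to 187 summed CPM in WT pachytene spermatocytes and 11 to 14.6 in WT round spermatids, with all 8 genes lower without overlap and none at 0, and their part in the members' change was not tested. Large-subunit members split into 2 higher and 18 lower of 49 tested and small-subunit members into 1 higher and 11 lower of 32, and none of the 3 P-stalk genes was called. Rpl3l, Rps27 and Rps27rt had too few counts to be tested.

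The falls were led by 9 members that were at least 2-fold lower in round spermatids. Rpl10a, a protein of the stalk opposite the P-stalk, had 55.6, 59.5 and 52.3 normalized CPM in WT pachytene spermatocytes and 14.6, 9.90 and 9.87 in WT round spermatids, a log2 fold change of -2.26 ± 0.16 (SE, adjusted p = 1.0e-07). Rpl14 went from 92.4, 105 and 74.9 to 25.6, 17.6 and 20.0 (-2.08 ± 0.17, adjusted p = 2.7e-07). Rps27a, which encodes ubiquitin fused to a small-subunit protein, went from 146, 161 and 155 to 40.2, 35.7 and 39.8 (-1.98 ± 0.13, adjusted p = 6.1e-08). In each of these 3 genes every round spermatid library lay below every pachytene library, in WT and in KO. The largest fall was that of Rps19bp1 (-2.68 ± 0.25, adjusted p = 6.9e-07), from 15.5 to 18.8 to 1.74 to 3.07, and Rpl7l1 fell by 1.74 ± 0.14 (adjusted p = 2.6e-07), from 33.2 to 42.1 to 10.5 to 12.3. These genes act beside the ribosome or in its assembly rather than as subunits.

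Rises were small. Rps20 rose from 209, 221 and 180 to 285, 292 and 307 normalized CPM in WT (log2 0.56 ± 0.13, adjusted p = 0.0022). Rpl36 (0.37 ± 0.14, adjusted p = 0.028) and Rpl41, which encodes the shortest ribosomal protein (0.37 ± 0.15, adjusted p = 0.039), were also called. Both calls were lost with library size scaling (adjusted p = 0.224 and 0.241) and when 1 library was left out. This was so for Rpl36 without pachytene replicate 1 or 3 or round replicate 1 or 2 (adjusted p = 0.0535 to 0.0941), and for Rpl41 without these or round replicate 3 (0.0626 to 0.125). The X-linked members and Rpl10l and Rpl39l were not called in this comparison in WT.

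In KO, whose libraries the WT fit did not use, 37 of 84 members were called, 13 higher and 24 lower, beside 74.9% of all genes (36.5% higher, 38.4% lower). The median was -0.03, against 0.0001 over all genes, and was 0.01 with DESeq2 size factors and 0.0095 without KO pachytene replicate 3. With library size scaling, which moved the median of all genes to -0.20 in WT and -0.15 in KO, the split was 1 higher and 42 lower in WT and 5 higher and 36 lower in KO. Members called in both genotypes numbered 25, which is 78.1% of the WT calls and 67.6% of the KO calls, and all 25 had the same direction. The overlap over all genes was not computed, so these shares cannot be read as particular to the members. Rps19bp1, Rpl10a, Rps27a, Rpl14 and Rpl7l1 again led the falls, at -2.35, -2.17, -1.90, -1.86 and -1.61. Rps4x (0.92 ± 0.32, adjusted p = 0.014), Rpl39 (0.89 ± 0.39, adjusted p = 0.046), Rpl36a (0.78 ± 0.30, adjusted p = 0.025) and Rpl39l (0.35 ± 0.12, adjusted p = 0.015) were called higher in KO only, and no gene's genotype difference in this step passed the test of the interaction. Each of these 4 calls was lost without at least 1 KO library. Rps4x lost it without pachytene replicate 2 (adjusted p = 0.0744), Rpl39l without pachytene replicate 1 (0.114), Rpl36a without pachytene replicate 2 or 3 or round replicate 1 (0.0638 to 0.0918), and Rpl39 without any pachytene replicate or round replicate 1 or 3 (0.0705 to 0.281).

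**Figure D3:**
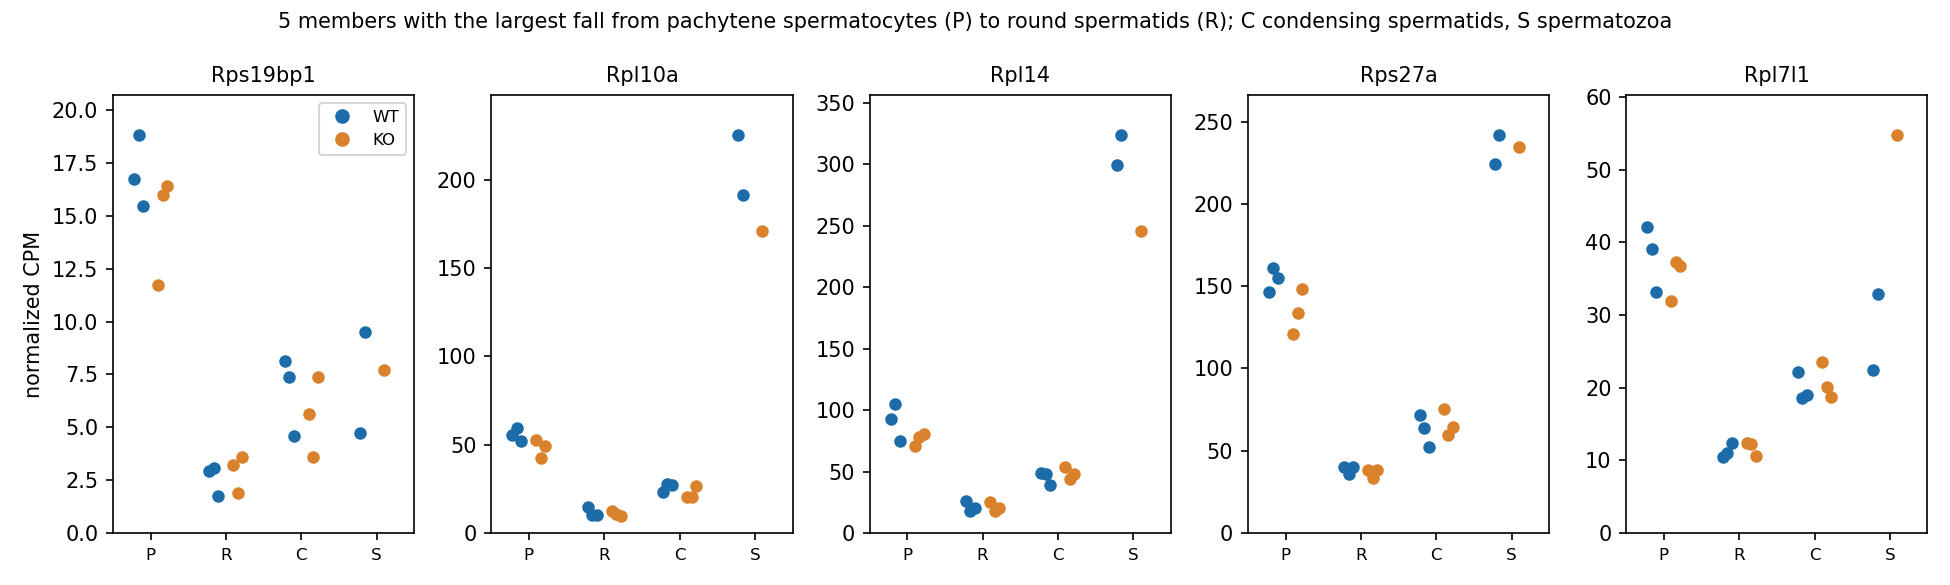
Normalized CPM (y axis, from 0) of Rps19bp1, Rpl10a, Rpl14, Rps27a and Rpl7l1 in each library, by stage (x axis: P pachytene spermatocytes, R round spermatids, C condensing spermatids, S spermatozoa) and genotype (blue WT, orange KO). In every panel the 6 round spermatid libraries lie below the 6 pachytene libraries, for Rpl10a at 9.79 to 14.6 against 42.1 to 59.5.

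From round to condensing spermatids, 20 of 84 members changed in WT, 13 up and 7 down, beside 50% of the 14011 genes tested (28.3% higher, 21.8% lower). The members' median was -0.06 and that of all genes 0.04. All 4 X-linked members rose. Rps4x went from 4.56, 3.76 and 2.47 to 10.9, 9.0 and 14.6 normalized CPM (log2 1.69 ± 0.32, adjusted p = 0.00089) and Rpl10 from 6.44, 6.41 and 5.08 to 13.2, 11.6 and 19.0 (1.30 ± 0.24, adjusted p = 0.00070), without overlap. Rpl36a (0.99 ± 0.26, adjusted p = 0.0077) and Rpl39 (0.94 ± 0.32, adjusted p = 0.027) rose less, and their calls depended on single libraries. Rpl36a lost it without condensing replicate 2 (adjusted p = 0.0527), and Rpl39 without round replicate 2 or 3 or condensing replicate 1 or 3 (0.0550 to 0.152).

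Of the autosomal copies, 3 went down in the same step, and Rpl36al differed by -0.06 ± 0.11 (adjusted p = 0.684). Rpl10l fell from 125, 170 and 158 to 86.5, 85.6 and 105 normalized CPM (-0.68 ± 0.14, adjusted p = 0.0018), Rps4l from 82.0, 82.9 and 81.9 to 55.6, 55.7 and 44.6 (-0.63 ± 0.13, adjusted p = 0.0015), and Rpl39l from 223, 187 and 190 to 169, 129 and 107 (-0.54 ± 0.18, adjusted p = 0.022). The groups were separate for each of the 3 genes. The call of Rpl39l was lost without round replicate 1 or condensing replicate 2 or 3 (adjusted p = 0.0574 to 0.0805). Rpl30 (-0.67 ± 0.23, adjusted p = 0.031) and Rps7 (-0.40 ± 0.12, adjusted p = 0.017) completed the 5 largest falls among called members, and Rpl30 lost its call without round replicate 1 or condensing replicate 1 or 3 (0.0699 to 0.125) and Rps7 without round replicate 2 (0.0546).

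Members that had fallen most in round spermatids were higher again in condensing spermatids. Rps19bp1 was 1.40 ± 0.27 higher on the log2 scale (adjusted p = 0.0010), Rpl10a 1.21 ± 0.17 (adjusted p = 8.9e-05), Rpl14 1.12 ± 0.17 (adjusted p = 0.00020), Rpl7l1 0.85 ± 0.15 (adjusted p = 0.00048) and Rps27a 0.73 ± 0.13 (adjusted p = 0.00063). Their condensing values stayed between those of the other stages, for Rpl10a at 23.4, 27.9 and 27.0 normalized CPM. Both comparisons use the same 3 round spermatid libraries, so a low value in them would enter the fall and the rise. In KO, 24 members were called, 16 higher and 8 lower, beside 54.2% of all genes (29.7% higher, 24.5% lower). Of these, 17 were shared with WT, which is 85.0% of the WT and 70.8% of the KO calls, all in the same direction. Here too the overlap over all genes was not computed. Rps4x (1.89 ± 0.23, adjusted p = 1.6e-06), Rpl39 (1.6 ± 0.29, adjusted p = 0.00013) and Rpl10 (1.35 ± 0.25, adjusted p = 0.00016) led the rises in KO. Rps4l (-0.52 ± 0.11, adjusted p = 0.00073), Rpl10l (-0.49 ± 0.14, adjusted p = 0.0072) and Rpl39l (-0.35 ± 0.12, adjusted p = 0.020) led the falls, of which Rpl10l lost its call without KO round replicate 1 or condensing replicate 2 (adjusted p = 0.0567 and 0.0637) and Rpl39l without round replicate 3 or condensing replicate 2 (0.0557 and 0.115). Sertoli cell markers were higher in condensing than in round spermatids (388 to 588 against 28.6 to 56.5 summed CPM) and so were Leydig cell markers (89.9 to 231 against 6.36 to 14.6), with none of the 18 genes of these lists at 0. The 8 pachytene genes summed to 792 to 811 CPM in WT round and 865 to 1085 CPM in WT condensing spermatids, with 5 of them higher and 2 lower without overlap, among them Piwil1 at 52.7 to 73.4 and 164 to 226 CPM. The part of these markers in the changes was not tested.

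Between condensing spermatids and spermatozoa the members changed as a body. In WT, 75 of 84 members were called, 72 higher and 3 lower, beside 72.4% of 15116 genes (36.6% higher, 35.8% lower). The median log2 fold change was 1.59 for the members and -0.0001 for all genes, and 61 of the 72 were at least 2-fold higher. The 3 members that were lower were Rpl39l (-1.72 ± 0.19, adjusted p = 5.9e-08), Rpl10l (-1.55 ± 0.17, adjusted p = 6.1e-08) and Rps4l (-0.60 ± 0.17, adjusted p = 0.0040). The last of these was not called without WT spermatozoa replicate 2 (adjusted p = 0.0782).

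Leaving aside Rpl3l, which had few counts, the largest rises were those of the X-linked members. Rps4x went from 10.9, 9.0 and 14.6 to 667 and 686 normalized CPM, a log2 change of 5.91 ± 0.19 (adjusted p = 2.6e-16), and Rpl10 from 13.2, 11.6 and 19.0 to 659 and 557 (5.41 ± 0.19, adjusted p = 1.1e-15). Rpl36a rose by 4.04 ± 0.20 (adjusted p = 1.6e-13) and Rpl39 by 3.75 ± 0.21 (adjusted p = 1.1e-12). Autosomal members that rose strongly included Rps3 (3.35 ± 0.15, adjusted p = 3.8e-14), Rpl10a (3.03 ± 0.15, adjusted p = 2.9e-13) and Rpl3 (2.97 ± 0.15, adjusted p = 1.9e-13), and all 3 P-stalk genes were higher. Rpl3l had 1, 1 and 0 counts in WT condensing spermatids, 13 and 9 counts in WT spermatozoa and 3 counts in KO spermatozoa. The KO spermatozoa library, which entered no fit, had 223 normalized CPM of Rpl10, 800 of Rps4x, 13.8 of Rpl10l and 23.4 of Rpl39l, each on the same side of the condensing spermatids as in WT.

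Other cell types differed in the same comparison. In WT the macrophage list stood at 27.9 to 39.0 summed CPM in condensing spermatids and 948 and 960 in spermatozoa, with none of its 8 genes at 0, and the epididymis list at 0.309 to 3.40 and 1787 and 1972, with 2 of 7 genes at 0 in spermatozoa. Sertoli and Leydig lists were lower in spermatozoa, at 220 and 252 against 472 to 588 summed CPM and at 11.9 and 12.3 against 158 to 231. The share of reads aligned to several places was also higher in spermatozoa, 11.6% to 15.5% against 4.35% to 5.03% in condensing spermatids. In the KO library, a single one, the macrophage list was at 4107 and the epididymis list at 548. The members' share in it was 2.18%, and in WT 2.49% and 2.51%. The part of these differences in the members' change was not tested.

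**Figure D4:**
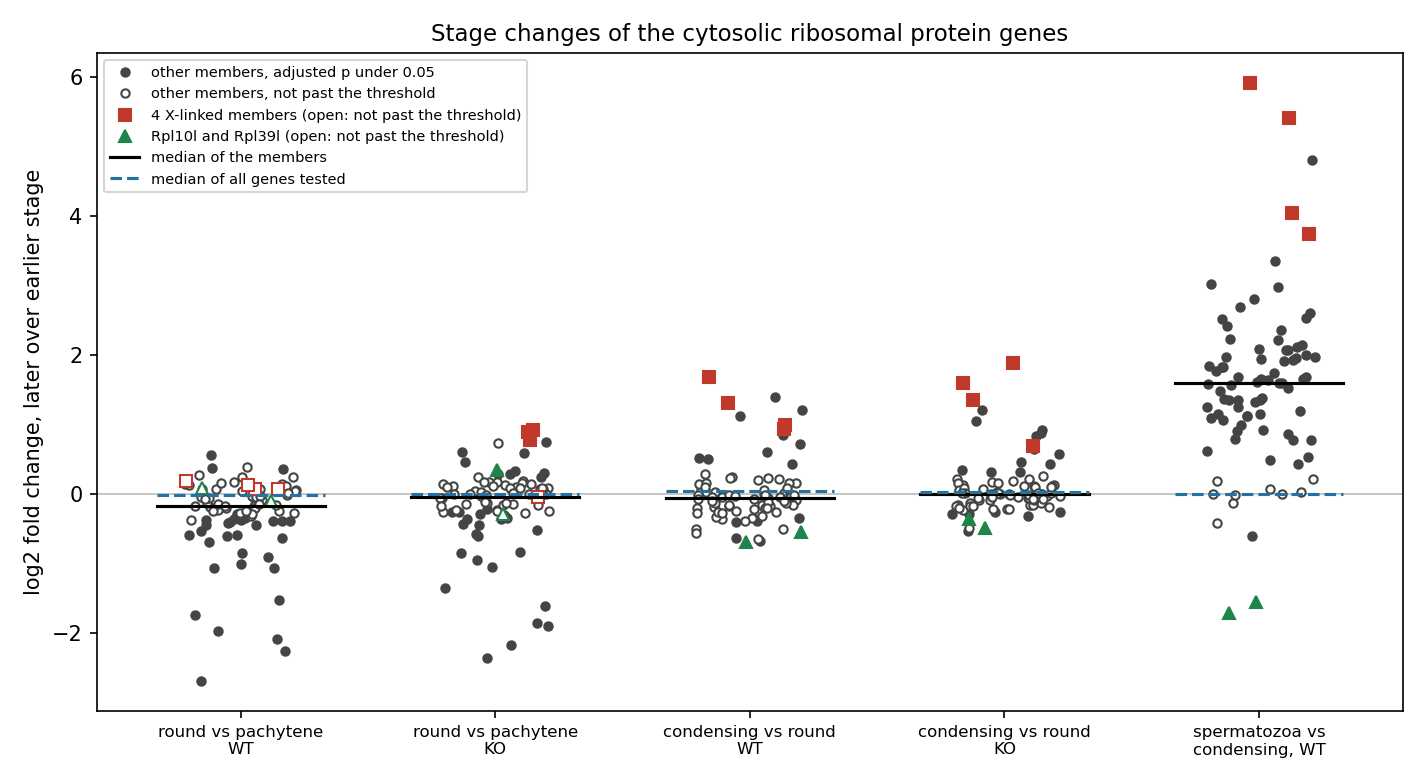
Log2 fold change (y axis) of every member tested in 5 stage comparisons (x axis); filled symbols passed the adjusted p threshold of 0.05, open ones did not, red squares are the 4 X-linked members, green triangles Rpl10l and Rpl39l, the solid line is the median of the members and the dashed line that of all genes. In spermatozoa against condensing spermatids the members' median is 1.59, with Rpl39l (-1.72) and Rpl10l (-1.55) below 0 and Rps4x (5.91) and Rpl10 (5.41) at the top.

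The comparison of genotypes asks whether loss of H2A.L.2 alters the RNA of these genes. H2afb1 was lower in KO round spermatids (log2 -3.10, adjusted p = 3.4e-08) and condensing spermatids (-2.71, adjusted p = 9.5e-07), and differed by -2.75 in pachytene spermatocytes (adjusted p = 0.484), with 99 to 339 counts in WT and 22 to 31 in KO, which did not overlap. No member was called in any stage, 0 of 83 in pachytene spermatocytes, 0 of 84 in round spermatids and 0 of 83 in condensing spermatids by edgeR, and 0 of 83, 84 and 81 by DESeq2. Over all genes edgeR called 0%, 0.0156% and 0.00728% and DESeq2 0.0163%, 0.0469% and 0.13%. At an unadjusted p under 0.05 edgeR had 5, 4 and 1 members, which is 6.02%, 4.76% and 1.2% of those tested, beside 6.66%, 5.88% and 6.33% of all genes. The interactions of genotype with stage called none of 84 members by edgeR and 0% of all genes. At an unadjusted p under 0.05 they had 1 and 0 members, beside 7.25% and 2.81% of all genes.

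In pachytene spermatocytes 80 of 83 members had a value below 0, with a median log2 difference of -0.15 (KO minus WT), against 0.007 over all genes. Groups did not overlap for 14 of 83 members, all lower in KO, beside 11.5% of all genes. The smallest p was that of Rpl39, with 2.87, 4.15 and 4.53 normalized CPM in WT and 1.70, 1.27 and 1.71 in KO (-1.22 ± 0.31, adjusted p = 0.656). These are 24 to 35 counts in WT and 8 to 12 in KO. Leydig cell markers were at 85.1 to 187 summed CPM in WT and 27.2 to 123 in KO pachytene spermatocytes, and Sertoli markers at 35.0 to 43.3 and 14.8 to 27.6. The 9 genes of elongating and condensing spermatids summed to 5793 and 5403 CPM in WT replicates 1 and 2, 2511 CPM in WT replicate 3 and 3094 to 3494 CPM in KO, and the pachytene marker Sycp1 stood at 110, 67.7 and 230 CPM in WT and 133 to 325 CPM in KO. The part of these markers in the shift was not tested. With 1 library left out the members' median was -0.20 to -0.11. In round and condensing spermatids the medians were -0.02 and 0.02, and groups did not overlap for 8 of 84 members (9.85% of all genes) and 7 of 83 members (11.8%).

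Rpl29, a large-subunit protein, had the smallest p in round and condensing spermatids. In round spermatids it had 76.2, 140 and 138 normalized CPM in WT and 50.5, 84 and 47.6 in KO (-0.95 ± 0.25, adjusted p = 0.612), and in condensing spermatids 60.2, 85.9 and 147 in WT and 45.1, 47.3 and 81.1 in KO (-0.77, adjusted p = 0.658). Both pairs of groups overlap. Pachytene spermatocytes had 75.3, 106 and 146 in WT and 41.2, 45.9 and 80.4 in KO, and spermatozoa 267 and 226 against 58.5. Rplp0 in round spermatids had 323, 540 and 516 in WT and 316, 327 and 278 in KO (-0.57, adjusted p = 0.612). Within WT, replicate 1 was the lowest of the round spermatid libraries for both genes. Without this library both were called by edgeR (Rpl29 -1.18, adjusted p = 0.0059, and Rplp0 -0.77, adjusted p = 0.00070). It was 1 of 6 libraries left out in turn, which gave 0 to 2 called members. The share of all genes called without it is not given here. With the replicate number added to the fit as a block, Rpl29 was called in round and condensing spermatids and Rplp0 in round spermatids. Of all genes, that fit called 0.476% in round and 0.189% in condensing spermatids. Rpl10l was next in round spermatids (-0.45 ± 0.15, adjusted p = 0.699), with 125, 170 and 158 in WT and 137, 103 and 89.4 in KO, which overlap.

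**Figure D5:**
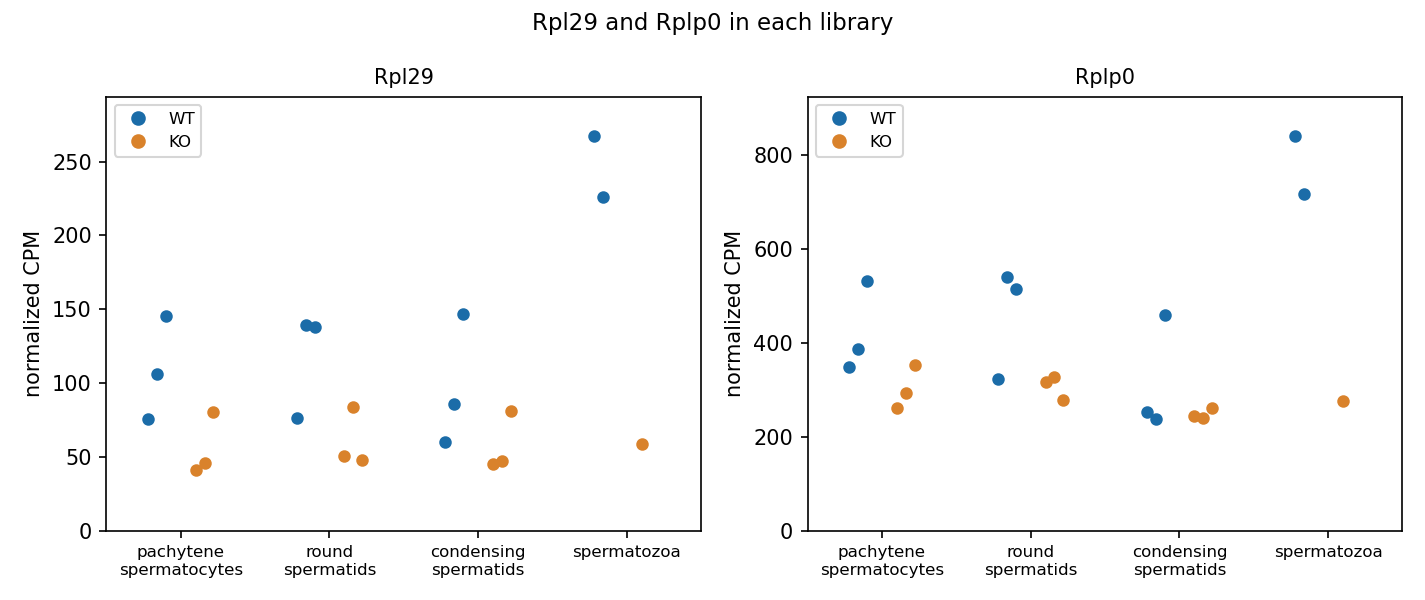
Normalized CPM (y axis, from 0) of Rpl29 and Rplp0 in each library by stage (x axis) and genotype (blue WT, orange KO). WT libraries are spread widely, for Rpl29 in condensing spermatids from 60.2 to 147, and overlap the KO libraries at 45.1 to 81.1.

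Rpsa and Fau, which encode ribosomal proteins under symbols outside the rule, moved partly with the members. From pachytene spermatocytes to round spermatids in WT, Fau rose by 0.44 ± 0.14 on the log2 scale (adjusted p = 0.013), and Rpsa differed by -0.29 ± 0.15 (adjusted p = 0.107). Both genes were higher in spermatozoa than in condensing spermatids, Rpsa by 2.14 ± 0.14 (adjusted p = 2.7e-11) and Fau by 1.59 ± 0.14 (adjusted p = 3.1e-09).

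Genes that make ribosomes mostly fell at the first step. Of 50 ribosome biogenesis genes, 3 rose and 30 fell in WT round spermatids (6.0% and 60.0%, median -0.76), beside 34.4% and 35.9% of all genes. The falls were led by Rrs1 (-3.39 ± 0.18, adjusted p = 1.1e-08), an assembly factor of the large subunit, Nol6 (-1.97 ± 0.14, adjusted p = 1.1e-07) and Rrn3 (-1.97 ± 0.16, adjusted p = 2.9e-07), which recruits RNA polymerase I. Of the 77 mitochondrial ribosomal protein genes, 5 rose and 53 fell (6.49% and 68.8%). In condensing spermatids 16 biogenesis genes rose and 9 fell (32% and 18%, beside 28.3% and 21.8% of all genes), with Rrs1 up by 1.75 ± 0.19 (adjusted p = 1.8e-05), and in spermatozoa 14 rose and 19 fell (28.0% and 38.0%, median -0.02), beside 36.6% and 35.8% of all genes. In these last 2 steps the shares of the list lay near those of all genes.

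In round spermatids, translation factors rose and fell in shares that were not above those of all genes. Of 41 tested, 13 rose and 11 fell in WT (31.7% and 26.8%, beside 34.4% and 35.9%), among them Eif2s3y (2.52 ± 0.16, adjusted p = 4.3e-08) and Eef1d (2.02 ± 0.23, adjusted p = 3.7e-06) upwards. Eif1ax stood between them in the order of called rises in WT and was first in KO. Gnb2l1, the older symbol of Rack1, a protein of the small subunit's head, changed in every step, by -2.10 ± 0.17 (adjusted p = 2.1e-07), 1.01 ± 0.17 (adjusted p = 0.00035) and 3.33 ± 0.16 (adjusted p = 1.2e-13). The X-linked Eif2s3x was 2.00 ± 0.35 higher in condensing than in round spermatids (adjusted p = 0.00058) and 3.0 ± 0.20 higher in spermatozoa than in condensing spermatids (adjusted p = 2.9e-11). Of 11 regulators of TOP mRNAs, 2 rose and 8 fell in round spermatids (18.2% and 72.7%) and 5 rose and 2 fell in condensing spermatids (45.5% and 18.2%), and of 12 in spermatozoa 6 rose and 3 fell (50% and 25%). The shares of all genes in these steps were those given above for the biogenesis genes. Larp1 fell by 0.88 ± 0.15 (adjusted p = 3.0e-05) and Mtor by 1.29 ± 0.16 (adjusted p = 2.8e-07) in spermatozoa. No gene of these lists was called between genotypes in any stage.

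The promoters of the members were searched for 3 short motifs, a feature that the choice by symbol did not use. RefSeq windows from 250 bases before to 50 after the start were at hand for 66 of the 87 members. CCGGAAG, the core bound by ETS factors, was found on either strand in 25 of the 66 (37.9%), against 9.93% of 27025 genes. TGACGTCA, the cAMP response element, was found in 5 (7.58% against 2.03%), and TATAAA, the letters of the TATA box, in 7 (10.6% against 15.7%). Matches were counted at any position of the window, so a TATAAA match does not show a TATA box. The 100 bases before the transcript starts that the RefSeq windows use are given for Rpl39 (chrX:37085223-37085322, minus strand) and Rpl39l (chr16:10170128-10170227, plus strand) in GRCm38.p6, because the copies differ over this stretch in the motifs, which are in capitals. The start used for Rpl39l lies inside the span given above for the gene, so the last bases shown for it overlap that span.
Rpl39: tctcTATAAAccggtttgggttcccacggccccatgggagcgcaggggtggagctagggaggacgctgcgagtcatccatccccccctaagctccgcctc
Rpl39l: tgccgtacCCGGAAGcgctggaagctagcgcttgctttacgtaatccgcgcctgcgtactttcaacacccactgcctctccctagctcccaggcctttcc
Over the whole window both Rpl39 and Rpl39l held CCGGAAG, and only in TATAAA, which Rpl39 and Rpl36a held, did these copies differ. None of the windows for Rpl10, Rpl10l, Rpl39, Rpl39l, Rps4x, Rpl36a and Rpl36al held TGACGTCA. Rps4l was not part of this check. The TATAAA of Rpl39 lies at the beginning of the stretch shown, far from the transcript start. A match describes these letters and is no evidence of binding.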

How the data were processed

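RNA was measured in 21 libraries of 8 groups, prepared with a stranded total RNA kit with ribosomal RNA depletion and read as paired ends. Per the study's methods and the labels, the authors used STAR 2.7.11b to place untrimmed reads on mm10, counted them with HTSeq over exons on the transcribed strand, dropped reads aligned to several places, and deposited raw read counts per gene. Closing rows that name no gene (34.6% to 57.7% of reads) entered neither library sizes nor tests.

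Stage changes were tested in edgeR 4.0.16 (R 4.3.3) with TMM, filterByExpr and the quasi-likelihood test on the 9 WT or 9 KO libraries of 3 stages, and for spermatozoa on 5 WT libraries. Genotypes were compared within each stage, and interactions on 18 libraries. Adjustment was by Benjamini-Hochberg over all genes tested, at 0.05. Normalized CPM used TMM over 21 libraries. Ratios of paralogs used log2 of counts plus 0.5 and exact two-sided permutation tests over libraries (scipy 1.17.1). Shares of counts were not tested. The steps were tested on simulated data. Floors cover counting error only, while SD and SE include the spread between libraries.

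Members and lists were chosen with earlier results of these data known. Named members are all genes of the 8 pairs, the X-linked members, in each stage comparison up to 5 called members per direction with the largest change, at least 1 CPM and no overlap, in each genotype comparison the 3 of smallest p, and the 5 highest and 5 lowest per kb, with up to 3 genes per direction of the other lists. Rps3 in spermatozoa, and values of named genes outside the comparisons that named them, were chosen after their values were seen. Transcript lengths, 75-base words and coding sequences came from GENCODE vM21, positions and promoters from RefSeq GRCm38.p6. Alternatives were DESeq2 1.42.0 and its size factors, library size only, TMM without the members, other filters, a fold over 1.2, no mitochondrial genes and Rn45s, 1 fit on 18 libraries, the replicate block, a pseudocount of 0.1, and each library left out. A wider set of genes for the shares of counts is not reported here.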

Additional observations from a re-analysis of the deposited data

How the results depend on the processing

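Requiring a fold change over 1.2 lowered the calls between round spermatids and pachytene spermatocytes from 32 to 20 in WT and from 37 to 21 in KO, and between condensing and round spermatids from 20 to 13 in WT and from 24 to 13 in KO. With this requirement, 64.2% of all genes were called in WT and 68.1% in KO in the first comparison. In the second, 39.2% were called in WT and 40.8% in KO. The shares of all genes without it were given above for each step. Leaving out 1 library gave 22 to 42, 27 to 36, 15 to 19 and 17 to 23 member calls in the same order. For spermatozoa it gave 71 to 76. The shares of all genes called with 1 library left out are not given here. For the genotype in round spermatids, no member was called, but 1 without a filter (Rpl29, adjusted p = 0.034, beside 0.143% of all genes), 2 with the replicate block (Rpl29, adjusted p = 0.0021, and Rplp0, adjusted p = 0.049, beside 0.476%), and 0 to 2 with 1 library left out. In condensing spermatids the block called 1 (Rpl29, adjusted p = 0.0016, beside 0.189%). Deviations of same-numbered WT and KO libraries correlated at -0.25 to -0.12 in pachytene spermatocytes. They correlated at 0.08 to 0.32 in round and -0.05 to 0.14 in condensing spermatids. Same-numbered libraries of neighbouring stages correlated at -0.24 to 0.32 in WT and -0.20 to 0.13 in KO. Between WT round and condensing spermatids the values were 0.32, -0.14 and 0.31 for replicates 1, 2 and 3. The numbers were not read as pairs. For the ratios of copies, the paired form with the replicate block called 0 of 24, since the exact sign-flip test over 6 pairs cannot go below p = 0.03125, a pseudocount of 0.1 called 16, and leaving out 1 library 9 to 16, with 9 whenever the spermatozoa test lost the libraries it needs. Not-called ratio differences between round spermatids and pachytene spermatocytes changed sign without 1 library, ranging from -0.37 to 0.035 for Rpl39l and Rpl39 and from -0.50 to 0.048 for Rpl3l and Rpl3. Of 810 called values of named members tested again, 741 stayed called, 69 were not called and 0 changed sign, and of 269 not called, 6 became called. The members' share without mitochondrial genes and Rn45s in the total was 1.22% and 1.06% in WT and KO pachytene spermatocytes, 0.917% and 0.888% in WT and KO round spermatids, 0.947% and 0.923% in condensing spermatids and 2.99% and 2.79% in spermatozoa. Without Rps19bp1 it was 2.18% in KO spermatozoa. Leaving out 1 library, it was 1.07% to 1.17% and 0.956% to 1.0% in WT and KO pachytene spermatocytes, 0.870% to 0.878% and 0.839% to 0.857% in round spermatids, 0.853% to 0.880% and 0.833% to 0.871% in condensing spermatids, and 2.49% to 2.51% in WT spermatozoa. The lower depth of spermatozoa and the few counts of Rpl3l, Rpl26, Rps27 and the X-linked members before spermatozoa limit those values.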
